A study of Mus musculus with 11 samples.

Results

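The 40 genes described here encode the contractile apparatus of smooth muscle and the proteins that anchor and control it. They were picked by name for their known roles in smooth muscle. The rule itself uses no measured value, but the set was drawn up with earlier results of these data known. All 40 were among the 43346 genes of the count table, and all 40 were among the 19863 genes kept by the filter on low counts. RNA was measured by polyA RNA sequencing of colonic tissue from 11 male Swiss Webster mice studied at 8 to 10 weeks of age. Germ-free mice (n = 5) carried no microbiota. Humanized mice (n = 6) were germ-free animals of the same stock that had received 300 μL of a human stool suspension by gavage at 4 to 5 weeks and were then left for 4 to 5 weeks. All humanized mice received stool from 1 donor, both groups were kept in isolators, and neither the segment of colon nor the layers of the wall that were sampled are named. The sources used here name no litter or sequencing run, so each p-value measures the spread between these mice only.

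Smooth muscle of the gut wall shortens when myosin, switched on by phosphorylation of its regulatory light chain, pulls on actin filaments. The filaments are tied to dense bodies inside the cell and to adhesion plaques at its surface, and a dystrophin complex and caveolae hold the membrane to them. Calcium released or admitted after muscarinic stimulation starts contraction by activating myosin light chain kinase, and cyclic GMP signalling ends it. Most of these genes are under the control of serum response factor, which binds a short A/T-rich element called the CArG box, and of its coactivator myocardin. The colon holds this muscle in the circular and longitudinal layers of the muscularis externa, in the muscularis mucosae and in the walls of blood vessels.

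The promoter sequences of RefSeq (build GRCm38.p6, 250 bases before to 50 bases after each annotated start) contained 35 of the 40 genes. A CArG box, written here as CC, 6 bases that are each A or T, and GG, and searched on both strands, lay in the promoter window of 6 of these 35 genes (17.1%: Srf, Myl9, Vcl, Dmd, Myom1 and Ldb3), against 1.81% of all 27025 genes with a window. When 1 G or C was allowed among the 6 central bases, a choice made after the first count was seen, 10 of the 35 genes (28.6%) had a match, against 11.3% of all genes. The stretches around the boxes of the 5 genes whose box lay outside annotated exons are shown because these elements are what the regulators of the gene set bind. In each line the capitals mark the CArG boxes and the lower case letters the flanking bases, read 5′ to 3′ on the strand of the gene. In the Myl9 line the second run in capitals holds 1 G among its central bases. Srf lies on the minus strand and the other genes on the plus strand.
Srf, chr17:46556190-46556269: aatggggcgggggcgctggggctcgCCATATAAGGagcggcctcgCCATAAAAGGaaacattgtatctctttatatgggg
Myl9, chr2:156775278-156775399: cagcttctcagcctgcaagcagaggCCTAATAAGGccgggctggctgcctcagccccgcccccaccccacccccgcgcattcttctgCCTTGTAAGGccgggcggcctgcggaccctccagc
Vcl, chr14:20929148-20929205: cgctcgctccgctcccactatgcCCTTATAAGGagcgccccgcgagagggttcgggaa
Dmd, chrX:82948747-82948806: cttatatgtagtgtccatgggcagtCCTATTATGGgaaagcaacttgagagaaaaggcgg
Myom1, chr17:71019433-71019492: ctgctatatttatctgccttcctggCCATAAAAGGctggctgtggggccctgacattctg
A match is a description of these letters and not evidence of a bound site, and a gene without one has none in this window only.

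The contractile genes were broadly downregulated in humanized mouse colon. Of the 40 genes, 37 were lower in humanized than in germ-free mice at FDR below 0.01 (edgeR exact test, adjusted over all 19863 genes), where 10.1% of all tested genes were lower and 9.2% higher. No member was higher. At an unadjusted p below 0.05 the exact test found 39 lower and 0 higher, where 19% of all tested genes were lower, and DESeq2 called 37 lower and 0 higher, where it called 11% of all tested genes lower. The log2-fold change of humanized over germ-free mice (LFC) was below 0 for all 40 genes, with a median of −1.60 over the members and 0.01 over all tested genes. It ranged from −2.41 for Cnn1 to −0.28 for Vcl, with 9 genes below −2 and 11 above −1. The 3 genes that did not pass the test were Ldb3, Pln and Chrm2. The test mattered for the count: the edgeR quasi-likelihood test called 23 of the 40 genes lower and 0 higher, where it called 6.53% of all tested genes lower. The 14 genes it left out, with quasi-likelihood FDR of 0.01001 to 0.0210, were Actg2, Cald1, Tpm1, Tpm2, Lmod1, Myh11, Des, Synpo2, Flnc, Vcl, Myom1, Nexn, Sgca and Srf. In the exact test without germ-free mouse 4, 28 genes were lower (7.45% of all tested genes), and Des, Lmod1, Synpo2, Nexn, Cald1, Actg2, Sgca, Vcl and Srf had FDR of 0.0119 to 0.0415. Because bulk tissue was sequenced, fewer muscle cells in the sample and less RNA per muscle cell cannot be told apart in any of these values.

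**Figure D1:**
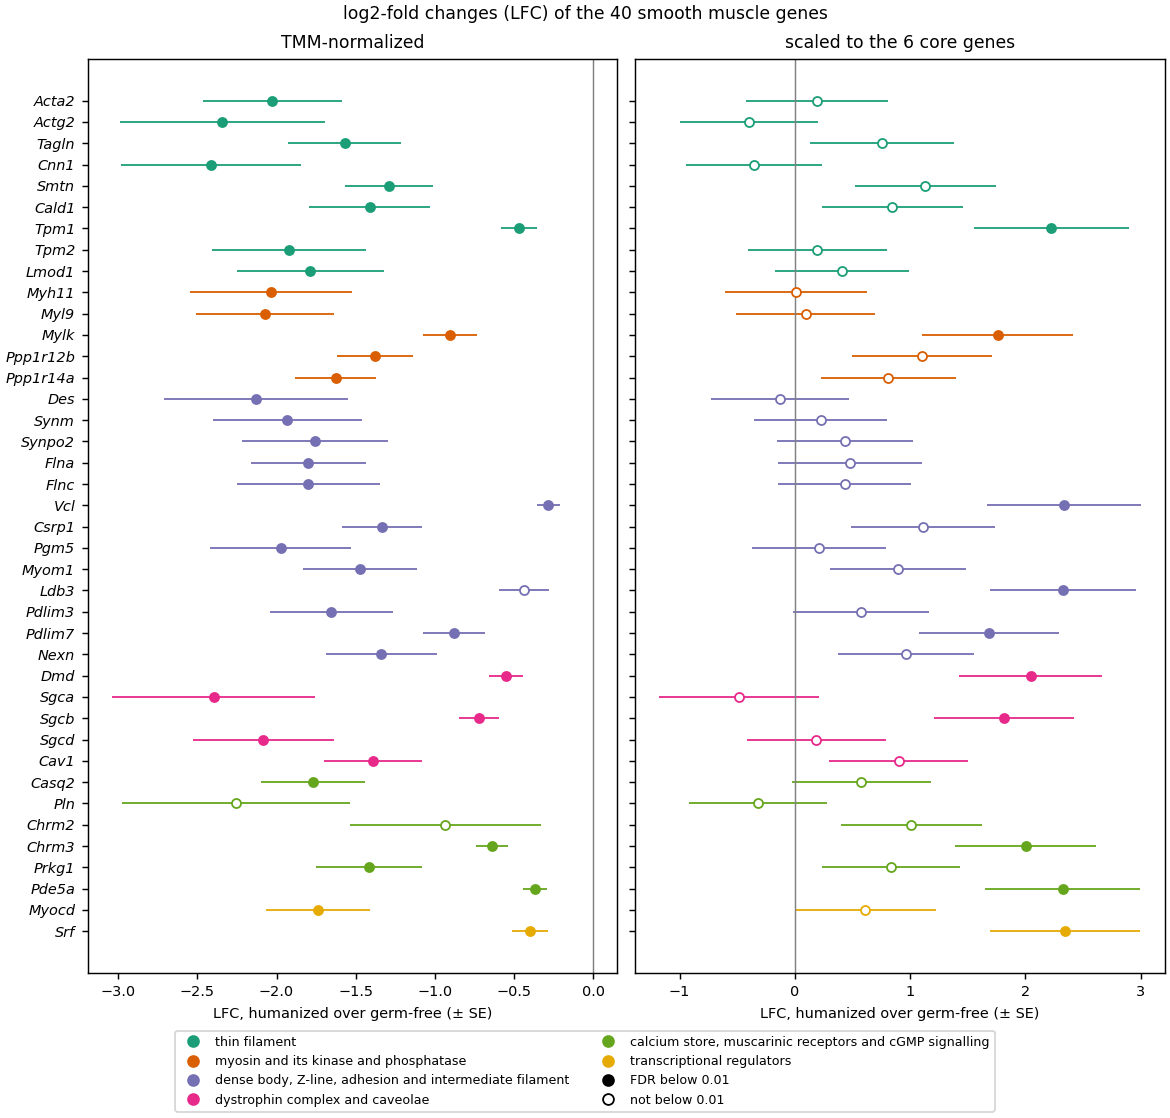
Log2-fold change of humanized over germ-free mice (horizontal axis, LFC with its standard error) for the 40 contractile genes grouped by role, with libraries scaled by TMM and, separately, to the 6 core contractile genes; filled points passed FDR below 0.01. With TMM scaling every point lies to the left of 0, and with core scaling the 10 filled points lie to the right.

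Library totals ran from 49097005 to 64148538 counts in germ-free mice, while humanized mice had 39125290 to 54219854. The 40 genes took 0.311% to 0.627% of the counts in germ-free mice against 0.0922% to 0.237% in humanized mice, and these ranges did not overlap. Summed over the 40 genes, RPKM (reads scaled to the length of the gene and to the TMM-scaled size of the library) was 758 to 1809.7 in germ-free mice against 206 to 706 in humanized mice. The labelled tissue was borne out by its own markers, since Car1 and Muc2, genes of colonocytes and goblet cells, averaged 3044 and 752 RPKM in germ-free mice. All 6 core muscle genes were detected in every mouse, with at least 221 reads each.

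The thin filament genes had the lowest median LFC of the 6 role groups, at −1.79. Acta2, the smooth muscle α-actin gene (chromosome 19, 34241090 to 34255336, build mm10), had 91.8, 97.7, 137, 254 and 118 RPKM in germ-free mice 1 to 5, and 9.09 (lowest), 32.1 (median) and 74.0 (highest) in humanized mice. The groups did not overlap, germ-free mouse 4 was far above the other germ-free mice, and the humanized mean was 24.5% of the germ-free mean (LFC = −2.03, SE 0.44, FDR = 5.16e-05). Actg2, the enteric γ-actin gene (chromosome 6, 83512905 to 83536265), read 44.1, 76.2, 101, 193 and 64.2 RPKM in germ-free mice against 3.25 (lowest), 10.9 (median) and 64.4 (highest) in humanized mice. Its humanized values were low in every mouse except mouse 6, which reached the level of the 2 lowest germ-free mice, and the gene was lower in humanized mice (LFC = −2.34, SE 0.65, FDR = 0.00169). Without humanized mouse 6 the LFC of Actg2 was −3.30 (FDR = 1.11e-10). Near-identical coding sequence did not blur these 2 actins in the annotation: none of the 101-base windows of their transcripts, the read length used, also occurred in another gene.

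Tagln, which encodes the actin-bundling protein transgelin (chromosome 9, 45929628 to 45936058), had 87.2, 111, 124, 219 and 102 RPKM in germ-free mice against 18.7 (lowest), 38.6 (median) and 92.3 (highest) in humanized mice, with humanized mouse 6 again inside the germ-free range (LFC = −1.57, SE 0.36, FDR = 0.000130). Its count carries some uncertainty. In the GENCODE M21 annotation, which may differ from the one used for counting, 5.43% of Tagln exon bases lay in exons of Pcsk7 on the opposite strand, and 48.1% of its 101-base windows also occurred in transcripts of Pcsk7 or Gm48529, of which only Pcsk7 overlapped Tagln among the counted genes. Pcsk7 itself had an LFC of 0.11. Cnn1, the gene of calponin, which inhibits actomyosin sliding (chromosome 9, 22099281 to 22109630), had 21.3, 36.2, 43.5, 83.0 and 30.1 RPKM in germ-free mice. In humanized mice it had 1.96 (lowest), 5.22 (median) and 24.9 (highest) RPKM, and its LFC was the lowest of the 40 genes, next to Sgca at −2.40 (LFC = −2.41, SE 0.57, FDR = 0.000190). Without humanized mouse 6 the highest humanized value was 7.05 RPKM, under the lowest germ-free value of 21.3, and the LFC of Cnn1 was −3.20, with Sgca at −3.32 and Actg2 at −3.30 below it.

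Tpm1, an α-tropomyosin gene whose isoforms are made in muscle and in many other cells, moved least of this group. It read 57.6, 66.4, 67.5, 92.2 and 65.7 RPKM in germ-free mice against 46.7 (lowest), 48.1 (median) and 61.2 (highest) in humanized mice (LFC = −0.47, SE 0.11, FDR = 0.000930). By mean RPKM it held rank 6 among the 40 genes in germ-free mice against rank 1 in humanized mice, whereas Acta2 passed from rank 1 to rank 3 and Actg2 from rank 4 to rank 8. Tpm2, the β-tropomyosin gene, stood in contrast to Tpm1: its mean fell from 51.2 to 13.5 RPKM (LFC = −1.92, SE 0.49, FDR = 0.000601), and its LFC was −2.51 without humanized mouse 6. The remaining thin filament genes were also lower, with Lmod1 (leiomodin, a nucleator of actin filaments) at an LFC of −1.79, Cald1 (caldesmon, which holds back the myosin ATPase) at −1.41 and Smtn (smoothelin, a marker of contractile smooth muscle) at −1.29. All 9 genes of this group passed the test, where 10.1% of all tested genes were lower, and 3 of them (Acta2, Smtn and Cald1) did not overlap between groups, where 9.73% of all tested genes were lower without overlap. In Smtn, 16.3% of exon bases and 4.89% of windows were shared with Gm11946, which overlaps it on the opposite strand and had an LFC of −1.36, and the library kit does not keep the strand of the RNA.

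**Figure D2:**
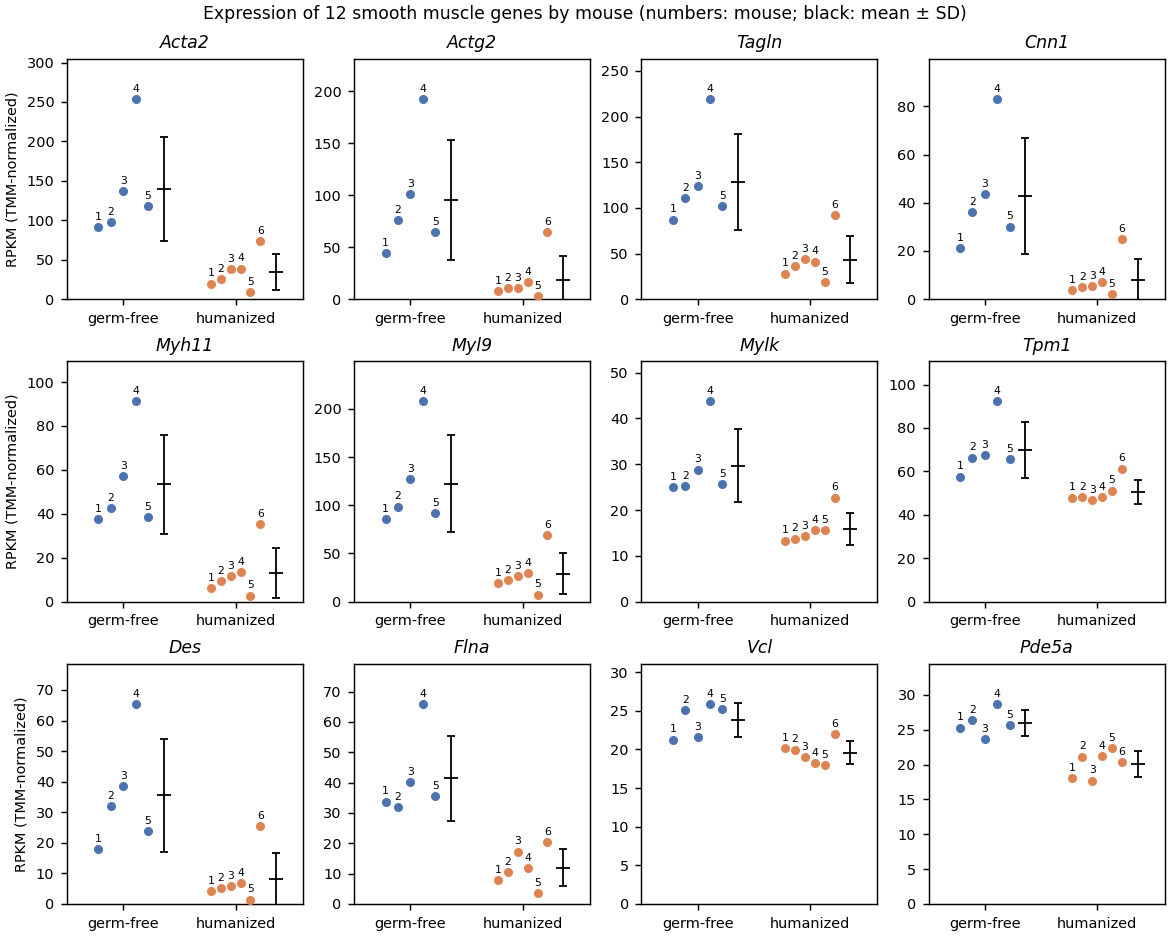
RPKM (vertical axis) of 12 contractile genes in each of the 5 germ-free and 6 humanized mice, with points for single mice and bars for the group mean and SD. Germ-free mouse 4 is the highest point in every panel, and humanized mouse 6 reaches the germ-free range in Actg2, Tagln, Cnn1, Tpm1, Des and Vcl.

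All 5 genes of myosin and its switch were lower (10.1% of all tested genes), and none overlapped between groups, where 9.73% of all tested genes were lower without overlap and 8.67% higher. Myh11, the smooth muscle myosin heavy chain gene (chromosome 16, 14194527 to 14291408), read 37.6, 42.7, 57.1, 91.2 and 38.5 RPKM in germ-free mice against 2.67 (lowest), 10.4 (median) and 35.2 (highest) in humanized mice. The gap between the groups was narrow, because humanized mouse 6 came close to the lowest germ-free mouse, and the other humanized mice reached at most 13.4 RPKM (LFC = −2.03, SE 0.51, FDR = 0.000507). Without mouse 6 the LFC of Myh11 was −2.64 (FDR = 3.03e-09). Myl9, the regulatory light chain that the kinase phosphorylates, had 85.5, 98.5, 127, 208 and 92.0 RPKM in germ-free mice against 7.32 (lowest), 24.5 (median) and 68.9 (highest) in humanized mice (LFC = −2.07, SE 0.44, FDR = 3.42e-05). The kinase gene Mylk, which also gives rise to a long form made in non-muscle cells, was reduced less. Its values were 24.99, 25.3, 28.8, 43.7 and 25.7 RPKM in germ-free mice against 13.3 (lowest), 14.9 (median) and 22.7 (highest) in humanized mice (LFC = −0.90, SE 0.17, FDR = 5.34e-06).

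The phosphatase genes separated the groups clearly. Ppp1r14a, which encodes CPI-17, an inhibitor of myosin phosphatase, had 19.7, 19.7, 24.4, 31.3 and 20.3 RPKM in germ-free mice against 3.65 (lowest), 8.47 (median) and 10.2 (highest) in humanized mice. The lowest germ-free value lay well above the highest humanized value, and no other member had a lower FDR (LFC = −1.63, SE 0.26, FDR = 9.59e-08). Ppp1r12b, a targeting subunit of the same phosphatase, averaged 4.43 ± 1.44 RPKM (SD, n = 5) in germ-free mice against 1.70 ± 0.589 (n = 6) in humanized mice (LFC = −1.38, SE 0.24, FDR = 3.93e-07).

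In the group of dense bodies, Z-line proteins, adhesions and intermediate filaments, 12 of 13 genes were lower (10.1% of all tested genes), with a median LFC of −1.66, and 9 were lower without overlap (9.73% of all tested genes). Des, the gene of the muscle intermediate filament desmin (chromosome 1, 75360329 to 75368579), had 17.9, 32.1, 38.7, 65.5 and 23.9 RPKM in germ-free mice against 1.44 (lowest), 5.47 (median) and 25.5 (highest) in humanized mice (LFC = −2.13, SE 0.58, FDR = 0.00153). As with Actg2, humanized mouse 6 exceeded 2 germ-free mice and every other humanized mouse lay at or under 6.76 RPKM, and without mouse 6 the LFC of Des was −2.93 (FDR = 3.61e-10). Synm, whose product joins desmin filaments to the membrane, gave an LFC of −1.93 with the same overlap through humanized mouse 6. Csrp1, a LIM-domain protein gene of smooth muscle, was the most abundant gene of this group and separated the groups fully, with 51.5, 61.6, 75.5, 107 and 59.0 RPKM in germ-free mice against 13.1 (lowest), 27.6 (median) and 42.5 (highest) in humanized mice (LFC = −1.34, SE 0.25, FDR = 4.16e-06).

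Vcl, the gene of vinculin, an adhesion protein of nearly all cells, had the smallest LFC in size of the 40 genes. It had 21.3, 25.1, 21.6, 25.9 and 25.2 RPKM in germ-free mice against 18.0 (lowest), 19.5 (median) and 21.99 (highest) in humanized mice (LFC = −0.28, SE 0.07, FDR = 0.00496). Of its windows, 24.6% were shared with Ap3m1, a gene on the opposite strand with an LFC of 0.04, and without strand the reads of the shared part cannot be told apart. The call for Vcl was lost when any 1 of 6 mice was left out, germ-free mouse 2, 4 or 5 or humanized mouse 1, 3 or 4, with FDR of 0.0102 to 0.0294 and LFC of −0.29 to −0.25. Ldb3, a Z-line protein gene, averaged 3.73 ± 0.624 RPKM in germ-free mice against 2.76 ± 0.642 in humanized mice and did not pass (LFC = −0.43, SE 0.16, FDR = 0.0409), with humanized mice 5 and 6 inside the germ-free range. Without humanized mouse 5, Ldb3 passed (LFC = −0.52, FDR = 0.00676), and 38 members were lower (11.5% of all tested genes).

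The actin crosslinker gene Flna, which most cells use, and its muscle counterpart Flnc gave nearly the same LFC, at −1.80 for both genes. Pgm5 (a phosphoglucomutase relative found at adhesions) had an LFC of −1.97, Synpo2 (an actin-binding Z-line and dense body protein) −1.76, Pdlim3 (an actinin-binding protein) −1.66, Myom1 (myomesin, best known from striated muscle) −1.47, Nexn (nexilin, an actin-binding protein) −1.34 and Pdlim7 (enigma, a LIM-domain protein) −0.88. None of these 8 genes overlapped between groups, where 9.73% of all tested genes were lower without overlap.

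Of the dystrophin complex and caveolae, all 5 genes were lower (10.1% of all tested genes), with a median LFC of −1.39. Sgca and Sgcd, 2 sarcoglycan genes, had LFC of −2.40 and −2.08. Sgcb, a sarcoglycan gene with wider expression, and Dmd, the dystrophin gene, moved less, at −0.72 and −0.55, and both separated the groups without overlap. Dmd read 1.03, 0.946, 0.981, 1.28 and 0.990 RPKM in germ-free mice against 0.580 (lowest), 0.706 (median) and 0.839 (highest) in humanized mice (LFC = −0.55, SE 0.11, FDR = 0.000145). Sgca was sparse, with 0 to 100 reads per mouse and none in humanized mouse 5, and it lost its call without germ-free mouse 3, germ-free mouse 4 or humanized mouse 1 (FDR = 0.0111, 0.0169 and 0.0106). Without humanized mouse 6 the LFC of Sgca was −3.32. Cav1, the structural gene of caveolae, averaged 17.3 ± 3.33 RPKM in germ-free mice against 6.59 ± 2.72 in humanized mice (LFC = −1.39, SE 0.31, FDR = 0.000127).

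Of the genes of calcium stores, muscarinic receptors and cyclic GMP signalling, 4 of 6 passed as lower (10.1% of all tested genes), and all 6 had an LFC below 0. Casq2, the calcium-binding protein of the sarcoplasmic reticulum, had 1.07, 1.42, 0.950, 1.39 and 0.899 RPKM in germ-free mice against 0.108 (lowest), 0.308 (median) and 0.563 (highest) in humanized mice (LFC = −1.77, SE 0.33, FDR = 5.81e-06). In contrast to most members, Casq2 was not highest in humanized mouse 6, at 0.263 RPKM. Chrm3, the muscarinic receptor gene that mediates most of the contraction evoked by acetylcholine, had a small and even difference, from 1.39, 1.52, 1.62, 1.41 and 1.32 RPKM in germ-free mice to 0.844 (lowest), 0.949 (median) and 1.01 (highest) in humanized mice (LFC = −0.64, SE 0.10, FDR = 7.73e-05). Chrm2, the more numerous muscarinic subtype on smooth muscle, did not pass. It had as few as 6 reads in a mouse, and its values were 0.204, 0.556, 0.308, 0.696 and 0.243 RPKM in germ-free mice against 0.0209 (lowest), 0.170 (median) and 0.580 (highest) in humanized mice, with 4 of the 5 germ-free mice inside the humanized range (LFC = −0.93, SE 0.60, FDR = 0.267). Without humanized mouse 6 the LFC of Chrm2 was −1.57 (FDR = 0.0224).

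Pln, whose product phospholamban restrains the calcium pump of the store, had 0 to 524 reads per mouse, and its count carries some uncertainty. In the same annotation 5.11% of Pln exon bases lay in exons of Cep85l on the opposite strand (LFC of −1.44), and 49.5% of its windows were shared with Cep85l or Gm47644, of which only Cep85l overlapped Pln among the counted genes. It had 0.985, 1.09, 1.99, 3.38 and 1.33 RPKM in germ-free mice against 0 (lowest), 0.288 (median) and 1.09 (highest) in humanized mice and did not pass (LFC = −2.26, SE 0.72, FDR = 0.0129). Pln passed without humanized mouse 6 (LFC = −2.99, FDR = 0.000488) and without humanized mouse 1, which had no Pln read (FDR = 0.00762). Prkg1, the cyclic GMP-dependent kinase that mediates relaxation, had an LFC of −1.42, and Pde5a, the phosphodiesterase that removes cyclic GMP, one of −0.37. Pde5a was tightly held in both groups, with 25.3, 26.3, 23.7, 28.7 and 25.7 RPKM in germ-free mice against 17.7 (lowest), 20.8 (median) and 22.4 (highest) in humanized mice (LFC = −0.37, SE 0.07, FDR = 0.000209). It moved from rank 13 of the 40 genes by mean RPKM in germ-free mice to rank 6 in humanized mice.

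Both regulators were lower, by different amounts. Myocd, the muscle-restricted coactivator myocardin, was the least abundant member in germ-free mice, at 0.331, 0.2498, 0.303, 0.541 and 0.298 RPKM, and had 0.0295 (lowest), 0.121 (median) and 0.138 (highest) RPKM in humanized mice. The groups did not overlap, and humanized mouse 6, at 0.118 RPKM, was not the highest of its group (LFC = −1.74, SE 0.33, FDR = 8.09e-06). Srf, the serum response factor gene, whose own promoter stretch is shown above with its pair of CArG boxes, is expressed in most cells. It had 11.9, 12.9, 16.1, 18.4 and 15.2 RPKM in germ-free mice against 9.01 (lowest), 11.6 (median) and 12.4 (highest) in humanized mice, with humanized mice 1, 5 and 6 inside the germ-free range (LFC = −0.40, SE 0.11, FDR = 0.00663). The Srf call was lost without germ-free mouse 3, 4 or 5 or without humanized mouse 2, 3 or 4, with Srf at FDR of 0.0144 to 0.0415.

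Single mice stood apart in both groups. For each mouse, the median over the 40 genes of log2 CPM (counts scaled to library size) relative to the germ-free mean was −0.31, −0.19, 0.02, 0.72 and −0.22 in germ-free mice 1 to 5. In humanized mice 1 to 6 it was −2.12, −1.56, −1.17, −1.33, −3.26 and −0.54, so that no humanized mouse reached the lowest germ-free mouse. Germ-free mouse 4 was the highest of its group in 38 of the 40 genes, humanized mouse 6 the highest of its group in 31 and humanized mouse 5 the lowest in 32. The SD as a share of the mean had a median of 34.1% over the members in the germ-free group and 50.4% in the humanized group, where all tested genes had 10.4% and 16.5%. It was larger in humanized mice for 34 of the 40 members, and for 80.2% of all tested genes.

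**Figure D3:**
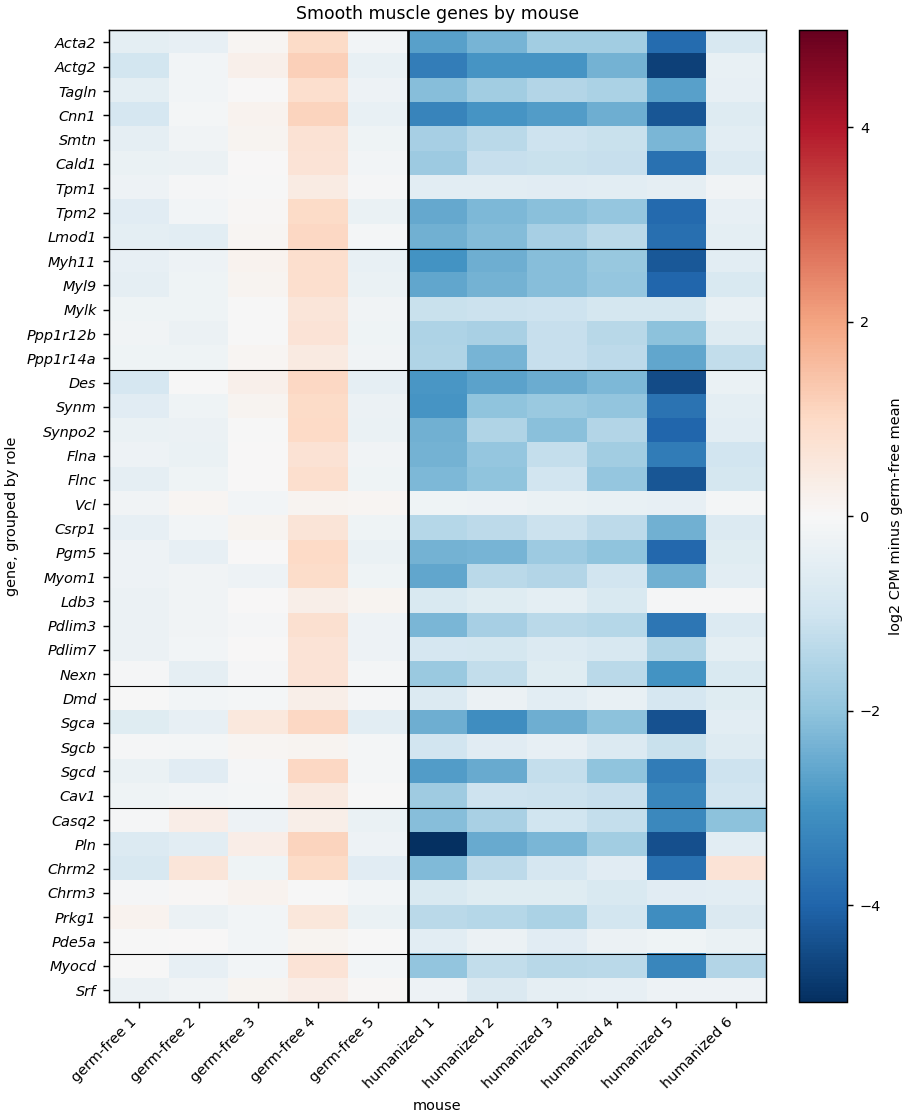
Log2 CPM of each of the 40 contractile genes (rows, by role) in each mouse (columns), minus the germ-free mean of the gene. Humanized mouse 5 has the most negative column and humanized mouse 6 the humanized column nearest to germ-free, with medians of −3.26 and −0.54.

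Humanized mouse 6 decided most of the overlap between groups. Of the 40 genes, 26 were lower without overlap (9.73% of all tested genes), 0 were higher without overlap (8.67%) and 14 overlapped, and in 11 of the 14 humanized mouse 6 alone reached the germ-free range (Actg2, Tagln, Cnn1, Tpm1, Tpm2, Lmod1, Des, Synm, Vcl, Sgca and Pln). Without that mouse 37 members were lower without overlap, where 10.8% of all tested genes were. With germ-free mouse 4 and humanized mice 5 and 6 all left out, 38 of the 40 genes were lower by the exact test (9.24% of all tested genes) and 38 were lower without overlap (13.9%). These 3 mice were chosen because they stood apart, and leaving out mice makes overlap less likely for any gene.

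The genes that stood high in germ-free mouse 4 were also those that stood high in humanized mouse 6. The excess of each of these mice over the mean of the others in its group, on the log2 scale, had a median of 0.90 in germ-free mouse 4 (above 0 in 39 genes) and 1.13 in humanized mouse 6 (above 0 in 38 genes). Across the 40 genes the 2 excesses, which share no library, had a Pearson r of 0.892 and a Spearman coefficient of 0.932. This was computed after the values were seen, is across genes that are not independent replicates, and is given as a description.

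**Figure D4:**
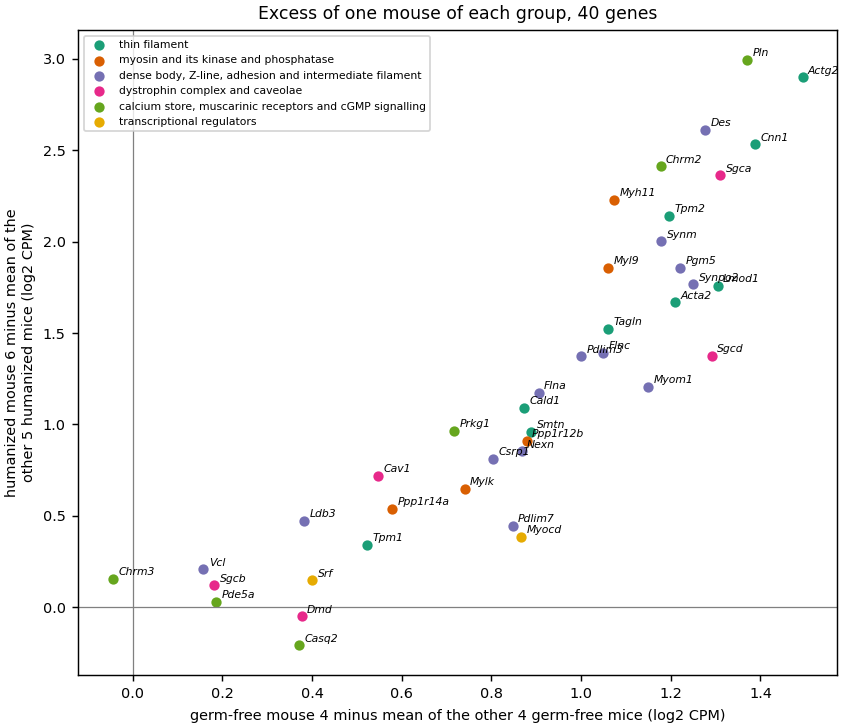
For each of the 40 contractile genes, the log2 excess of germ-free mouse 4 over the other germ-free mice (horizontal axis) against that of humanized mouse 6 over the other humanized mice (vertical axis), with 1 point per gene. The points rise together, with Pearson r of 0.892 over 40 genes.

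The members did not fall in equal proportion. To compare them with the contractile core, the test was repeated with each library scaled to the geometric mean count of 6 core genes (Acta2, Actg2, Tagln, Myh11, Cnn1 and Des), and the other 34 members were counted. On this scale 10 of 34 were higher in humanized mice at FDR below 0.01 and 0 were lower, where 89.3% and 0.0201% of all tested genes were. The count of 0 lower was the same at an unadjusted p below 0.05 in the exact test, and by the quasi-likelihood test and DESeq2. Of all 19863 tested genes, only 12, 4 and 4 were lower in these 3 settings. Hardly any gene can be called lower on this scale, so the 0 says nothing particular to the members. The 10 genes were Tpm1, Mylk, Vcl, Ldb3, Pdlim7, Dmd, Sgcb, Chrm3, Pde5a and Srf, and their LFC relative to the core ran from 1.68 to 2.34. Under TMM scaling these 10 had LFC of −0.90 to −0.28, and thus fell less than the core while, except for Ldb3, still being called lower. The quasi-likelihood test called the same 10, where it called 88.6% of all tested genes higher, and DESeq2 called 12, where it called 90.5%. With germ-free mouse 4 and humanized mice 5 and 6 left out, 17 were higher relative to the core, where 94.2% of all tested genes were.

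The other 24 members were not called different from the core by the exact test on all 11 mice. Their LFC relative to it ran from −0.48 to 1.13 with standard errors of 0.58 to 0.69, and 22 of the 24 values lay above 0. They included Myl9 (0.10), Sgcd (0.19), Tpm2 (0.20), Pgm5 (0.21) and Synm (0.22) close to 0, and Smtn, Csrp1 and Ppp1r12b toward the upper end, at 1.13, 1.11 and 1.10. Core values, as a check of the scaling, ran from −0.40 for Actg2 to 0.76 for Tagln and are not counted.

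Other genes of the contraction pathway were less uniform than the members. A list of 104 genes outside the 40 was drawn up from knowledge of the pathway, and 101 of them were tested: 44 were lower and 3 higher, with a median LFC of −0.33, where 10.1% of all tested genes were lower and 9.2% higher. Rgs5, Kcnj8 and Abcc9 are also in the pericyte and vascular smooth muscle marker list below. Of the 98 tested genes in no marker list, 41 were lower and 3 higher. Of 27 genes of the contractile machinery 14 were lower and 0 higher, and of 11 genes of the dystrophin complex and caveolae 9 were lower and 0 higher. Calcium and membrane channels had 9 of 17 lower and 0 higher, with a median LFC of −1.54. Receptors and cyclic nucleotide signalling had 9 lower and 1 higher of 21, and transcriptional regulators 2 lower and 0 higher of 11, a share near that of all tested genes.

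The lowest p-values of that list belonged to 3 genes that were lower. Tln2, the gene of the adhesion protein talin 2, averaged 2.76 ± 0.111 RPKM in germ-free mice against 1.48 ± 0.194 in humanized mice (LFC = −0.90, SE 0.09, FDR = 4.97e-16). Fhl1, a LIM-domain protein gene of muscle, averaged 75.4 ± 7.14 and 38.7 ± 8.83 RPKM (LFC = −0.96, SE 0.14, FDR = 3.90e-09), and Filip1l, a filamin-interacting protein gene, 27.0 ± 5.91 and 14.3 ± 1.65 RPKM (LFC = −0.92, SE 0.14, FDR = 9.47e-09). The 3 genes that were higher were Oxtr, the oxytocin receptor gene (LFC = 0.93, SE 0.23, FDR = 0.00232), Ppp1cb, the catalytic subunit of myosin phosphatase (LFC = 0.41, SE 0.11, FDR = 0.00266), and Calm2, a calmodulin gene (LFC = 0.30, SE 0.08, FDR = 0.00602). By the quasi-likelihood test, and with libraries scaled to their total counts, 0 genes of the list were higher.

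Markers of other cells of the colon wall were lower as well, where 10.1% of all tested genes were lower and 9.2% higher, and the LFC in parentheses are those of the most abundant genes of each list. Of 10 fibroblast markers 7 were lower and 0 higher, with a median LFC of −1.52, and their summed RPKM was 249 to 414 in germ-free and 28.2 to 207 in humanized mice (Dcn −1.38, Col3a1 −1.36). Pericyte and vascular smooth muscle markers had 7 of 8 lower and 0 higher, with summed RPKM of 41.6 to 70.3 and 4.56 to 22.8 (Rgs5 −1.86, Pdgfrb −1.13). Enteric neuron markers had 10 of 12 lower and 0 higher, with summed RPKM of 18.4 to 35.9 and 2.03 to 13.2 (Vip −1.74, Uchl1 −1.997). Enteric glia markers had 5 of 7 lower and 0 higher. Their summed RPKM of 90.0 to 114 and 80.3 to 146 was mostly that of Erbb3, which is also expressed outside glia and had an LFC of 0.13. By the quasi-likelihood test 5 fibroblast, 6 pericyte, 6 neuron and 5 glia markers were lower (6.53% of all tested genes), and Dcn, Col3a1, Rgs5 and Vip did not pass (FDR = 0.0140, 0.0148, 0.0117 and 0.0182). The part of these cells in the differences of the contractile genes was not tested.

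Other marker lists moved less or the other way. Markers of interstitial cells of Cajal, the pacemaker cells of the muscle layer, had 1 of 5 lower and 0 higher by the exact test. All 5 had an LFC below 0, with a median of −0.40, and 4 were lower at an unadjusted p below 0.05 (19% of all tested genes). Their summed RPKM was 40.7 to 47.5 in germ-free and 27.0 to 40.9 in humanized mice (Kit −0.29, FDR = 0.0426, and Ano1 −0.30, FDR = 0.0175). This sum was mostly that of Kit and Ano1, which averaged 28.6 and 12.3 RPKM in germ-free mice. Of 8 endothelial markers 0 passed in either direction by the exact test, although 6 were lower at an unadjusted p below 0.05; DESeq2 called 1 lower and the quasi-likelihood test 0, and the median LFC was −0.93 (Pecam1 −0.91, Cldn5 −0.62). Their summed RPKM was 24.6 to 30.3 and 3.32 to 22.2. Epithelial markers had 0 of 11 lower and 3 higher, with summed RPKM of 4334 to 5727 and 4860 to 6705 (Krt8 0.27, which did not pass, and Lgals4 0.46), and colonocyte and goblet cell markers 0 of 5 lower and 1 higher (Car1 1.34, and Muc2 0.46, which did not pass). Plasma cell markers had 4 of 5 higher, with summed RPKM of 134 to 173 and 238 to 751 (Igj 3.21, Xbp1 0.60).

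Markers of striated muscle were low throughout. Skeletal muscle markers had 2 of 4 tested genes lower, with summed RPKM of 4.17 to 13.1 in germ-free and 1.90 to 5.86 in humanized mice (Ckm −2.08, Acta1 −1.65), and the fast myosin genes Myh4 and Myh1 had 0 reads in all mice. Cardiac muscle markers had 2 of 4 tested genes lower, with summed RPKM of 1.75 to 2.56 and 0.610 to 1.4995 (Actc1 −1.85, Tnnt2 −0.45, which did not pass). The quasi-likelihood test called 1 skeletal and 0 cardiac markers lower, and DESeq2 called 1 of each. Of the leukocyte markers, 2 of 6 were higher, while the most abundant, Lyz2 and Cd68, did not pass (0.39 and −0.74). Mesothelial (3 tested; Upk1b 0.12, Upk3b −1.35), adipocyte (2 tested; Cidec 0.29, Fabp4 −0.97), distal colon (1 tested; Hoxa13 −1.63, FDR = 0.0190) and erythrocyte markers (5 tested; Hbb-bs 0.17, Hbb-bt 0.28) had 0 genes past the threshold by the exact test, the quasi-likelihood test or DESeq2. At an unadjusted p below 0.05, 1 adipocyte gene and the distal colon gene were lower.

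Mouse by mouse, the muscle core and the other stromal lists parted in humanized mouse 6. The median over the 6 core genes of log2 CPM relative to the germ-free mean was −0.46 in that mouse, against −4.26 to −2.08 in the other humanized mice. The same median in humanized mouse 6 was −1.46 for fibroblast, −1.44 for pericyte, −1.19 for neuron and −1.13 for glia markers. In the other humanized mice it spanned −3.62 to −0.69 for fibroblast, −3.31 to −0.77 for pericyte, −3.37 to −1.16 for neuron and −2.57 to −1.15 for glia markers, so that humanized mouse 6 lay inside these ranges for the fibroblast, pericyte and neuron lists and just above for glia. Germ-free mouse 4 had a core median of 0.99, with 0.25 for fibroblast, 0.20 for pericyte, 0.25 for neuron and 0.45 for glia markers. The core was not alone in standing high in this mouse. Its median was 1.43 for the 3 tested mesothelial genes and 0.63 for the 2 tested adipocyte genes, against 0.10 for endothelial and −0.05 for epithelial markers. Humanized mouse 5 was the lowest humanized mouse both for the core and for fibroblast, pericyte, neuron and endothelial markers.

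**Figure D5:**
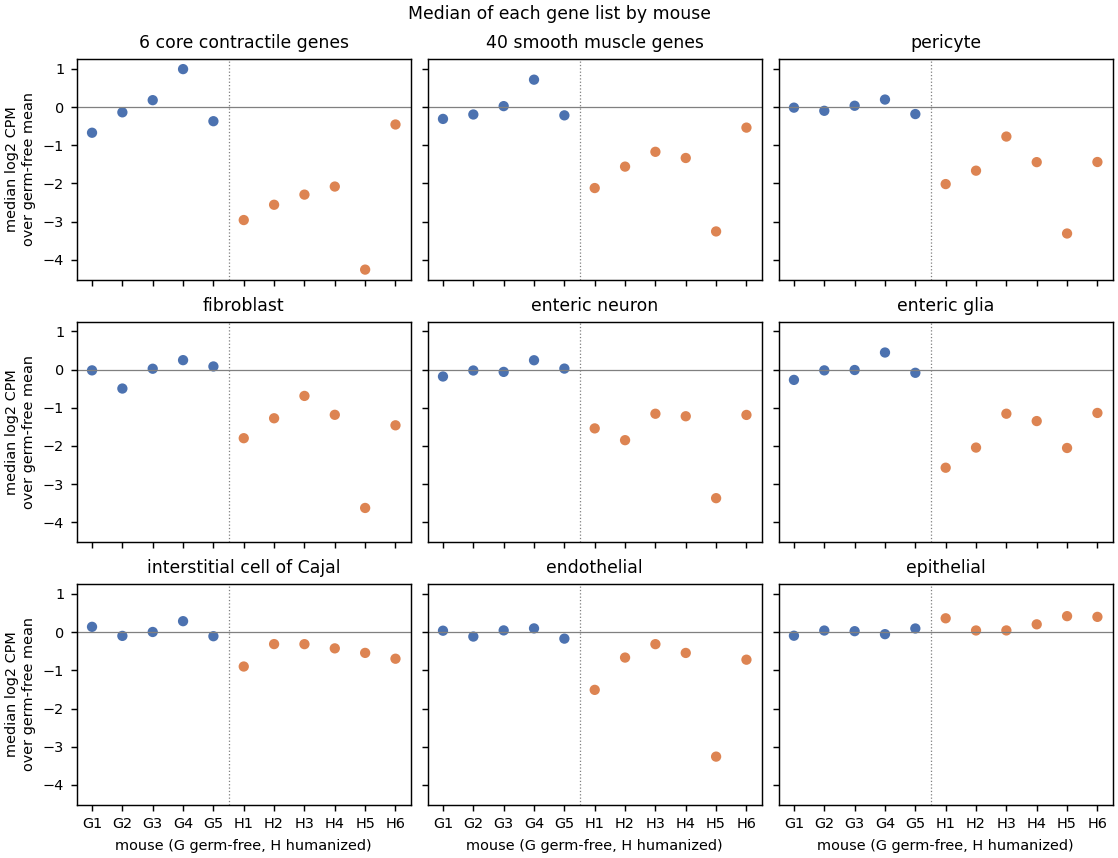
Median log2 CPM relative to the germ-free mean (vertical axis) in each mouse (horizontal axis), in 1 panel for each of 9 gene lists, including the 40 contractile genes and markers of other cell types. Humanized mouse 6 is near germ-free mice for the core contractile genes, at −0.46, and among the other humanized mice for fibroblast markers, at −1.46.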

How the data were processed

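The authors prepared polyA libraries with a TruSeq RNA v2 kit, which does not keep strand, sequenced 101-base paired reads, aligned them to mm10 with TopHat (2.1.0; Bowtie version 2.2.3), and counted them with featureCounts (Subread 1.4.6-p5). They deposited whole-number counts for 43346 genes in 11 mice, with a length per gene, also used here as deposited (other unit: bases). The annotation release is not given in the sources used here.

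From the counts, genes were filtered with filterByExpr (minimum count 10, minimum total 15, large n 10, proportion 0.7), which kept 19863 genes, and tested with edgeR 4.0.16: TMM factors, the classic exact test, Benjamini-Hochberg adjustment over all tested genes and a threshold of FDR below 0.01. LFC standard errors came from the quasi-likelihood fit. RPKM used TMM-scaled library sizes and the deposited lengths, and log2 CPM a prior count of 2. Library totals were 39125290 to 64148538 counts. DESeq2 1.42.0 was an alternative. The members and the lists were chosen with earlier results of these data known. Scripts were tested on simulated data.

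All members were accounted for. Of the pathway list, the 3 genes with the lowest p in each direction at FDR below 0.01 were named, and of each marker list the 2 with the highest mean RPKM. The values of 1 marker gene and the counts of 1 pathway group are not reported here. Older symbols were matched for 9 genes. Shared windows came from GENCODE M21 transcripts and promoters from RefSeq. Alternatives were other tests, normalizations, filters and thresholds, each mouse left out, and the replicate block. Chosen after seeing the data were leaving out 3 mice together, the unpaired fit on 10 mice and the looser CArG box.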

Additional observations from a re-analysis of the deposited data

Results flagged for a closer look

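In each group, a value was singled out where the highest or lowest mouse stood apart from the rest by more than the 95% critical value of Dixon's test for a single outlying value. Over 82 groups of values (the 40 genes and their median per mouse, in each group of mice), 30 met this mark. Chance alone gives about 5% of groups only where values are normally distributed, and the genes were tested as RPKM, not on a log scale. The median over the 40 genes, which is on the log2 scale, met the mark in neither group of mice. Since the genes move together within a mouse, the 30 are far from independent: 19 belong to germ-free mouse 4 and 11 to humanized mouse 6, each the highest of its group.

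In germ-free mouse 4 the RPKM singled out among thin filament genes were 254 for Acta2, 219 for Tagln, 18.7 for Cald1, 92.2 for Tpm1 and 8.70 for Lmod1. In the same mouse Mylk stood at 43.7 RPKM, Ppp1r12b at 6.96, Flna at 66.0, Flnc at 3.42, Synpo2 at 9.86, Pgm5 at 19.8, Myom1 at 3.58, Pdlim3 at 37.1, Pdlim7 at 6.77 and Nexn at 3.96. Among the membrane and regulatory genes it had 1.28 RPKM of Dmd, 0.815 of Sgcd, 23.1 of Cav1 and 0.541 of Myocd.

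In humanized mouse 6 the RPKM singled out were 64.4 for Actg2, 92.3 for Tagln, 24.9 for Cnn1, 61.2 for Tpm1, 36.02 for Tpm2, 35.2 for Myh11, 68.9 for Myl9, 22.7 for Mylk, 25.5 for Des, 2.45 for Synm and 0.299 for Sgca. The next highest humanized values were, for example, 16.2 RPKM for Actg2 and 6.76 RPKM for Des.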

How the results depend on the processing

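No member reversed its direction and 0 were higher under any alternative. Of the 40 genes, 37 were lower with DESeq2, RLE or upper-quartile factors or no filter, 39 with total counts, with libraries scaled to the epithelial markers or at FDR below 0.05, and 35 with at least 10 counts in every mouse (4 not tested). The quasi-likelihood test called 23, and 28 passed with an absolute LFC above 1. Total counts and the epithelial scaling moved the median LFC of all genes to −0.18 and −0.23 and that of the members to −1.76 and −1.83. Shares of all tested genes are not given for the alternatives of this paragraph, except for those printed with the results above. With each mouse left out in turn, 28 to 38 members were lower (28 without germ-free mouse 4) and their median LFC was −1.72 to −1.34. The replicate numbers of the labels did not pair the mice (r of −0.13 to 0.09 for same-numbered mice, 0 of 5 pairs over 0.1). The quasi-likelihood fit with the replicate block on mice 1 to 5 called 27 members lower, against 35 without the block on the same 10 mice, 19 pathway genes lower and 0 higher, 15 marker genes lower and 3 higher, and 19 members higher relative to the core. Without the block the same 10 mice gave 30 pathway genes lower and 0 higher, and 21 marker genes lower and 8 higher.

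The 3 pathway genes that were higher became 0 under the quasi-likelihood test, total counts, epithelial scaling or an absolute LFC above 1, 6 at FDR below 0.05, and 0 to 4 with 1 mouse left out (0 without germ-free mouse 1, 1 without germ-free mouse 2, 3 or 5 or humanized mouse 2 or 6). Marker genes that were lower went from 34 to 24 by the quasi-likelihood test. Those that were higher went from 10 to 5 with epithelial scaling and to 6 with an absolute LFC above 1. Relative to the core, 10 members were higher, 12 with DESeq2, 17 without germ-free mouse 4 and humanized mice 5 and 6, and 8 to 13 with 1 mouse left out. The cause of these changes was not tested. The members lower without overlap went from 26 to 37 with total counts, epithelial scaling or without humanized mouse 6. Without that mouse 10.8% of all tested genes were lower without overlap. The share is not given for total counts or epithelial scaling, which also moved the median LFC of all genes below 0. Depth limits Sgca, Pln, Chrm2 and Myocd, which had 0, 0, 6 and 9 reads in their lowest mouse.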
